A study of Mus musculus with 18 samples.

Results

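The expression of 36 genes of autophagy and the lysosome was followed in C2C12 myotubes, the fused muscle fibres that form when cells of this mouse myoblast line are differentiated. The 36 genes were named by symbol and were matched by Ensembl gene ID to rows of a table of 48795 gene IDs, and all 36 were found. Poly-A RNA had been sequenced from 18 libraries in 6 groups of 3, after 5 days of differentiation in horse serum. The first 3 groups received 200 µM dexamethasone, a synthetic glucocorticoid, for 24 h. In the 12 h before it they were pre-treated with 0.1% DMSO as vehicle, or with ginsenoside Rc at 10 or 20 µM. The other 3 groups received no dexamethasone and were kept for 36 h with 10 µM ginsenoside Rc, with 20 µM of it, or with 0.1% DMSO (control). Ginsenoside Rc is a triterpenoid saponin of ginseng. All cultures are of 1 cell line, and the sources used here do not say if ginsenoside Rc was still present while dexamethasone was on. The design asks how myotubes respond to the glucocorticoid and whether the ginsenoside alters that response. Separate cultures are not stated for the 3 libraries of a group. The p-values therefore cover the spread among libraries and no more, and that spread could be technical.

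In autophagy a membrane grows around cytoplasmic cargo, closes into an autophagosome and fuses with a lysosome, where acid hydrolases degrade the contents. The ULK kinase complex and the Beclin lipid kinase complex start the membrane, Atg9a brings lipid to it, and a conjugation system related to ubiquitin attaches Atg8 proteins to it, which bind cargo receptors such as p62. Lysosomal genes share a short promoter element, the CLEAR motif, that the transcription factors TFEB and TFE3 bind. Muscle breaks down protein through autophagy and the proteasome during fasting and glucocorticoid excess, and several autophagy genes are known targets of FoxO factors in muscle.

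The libraries held between 32.4M and 45.4M expected counts each (M, 1e6), and 15436 genes passed the filter on low counts. Of the 36 genes 35 passed it. The exception was Ctss, the cathepsin of antigen-presenting cells, which had 0 to 3 counts in every library. Ctsk, the cathepsin of osteoclasts, passed with 2 to 16 counts per library. The other 34 genes had 855 to 63848 counts in each library, so counting error was small for them. No pair of replicates matched within sampling noise (chi-square per degree of freedom 4.93 to 82.9). Replicate 2 of the group with 20 µM ginsenoside Rc alone stood apart. Mitochondrially encoded genes took 2.79% of its counts, against 1.26% to 1.91% in the other 17 libraries.

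That library deviated over all genes, the autophagy genes included. Its chi-square per degree of freedom was 82.9 and 81.2 against the other libraries of its group. In it 16 of the 34 well-counted genes lay more than 0.25 on the log2 scale from the mean of the other 2 libraries of its group, 8 below and 8 above, while no other library had more than 5 such genes. Gabarapl2 was lower in it by a log2 difference of -0.71, Atg16l1 by -0.50 and Becn1 by -0.48. Gabarap was higher by 0.54, Tfe3 by 0.43 and Ulk1 by 0.42. The share of all genes beyond 0.25 was not counted, so the 16 are no result particular to this set. These differences have the size of many of the dexamethasone changes below. That library enters the shared estimate of spread, so counts are also given without it.

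**Figure D1:**
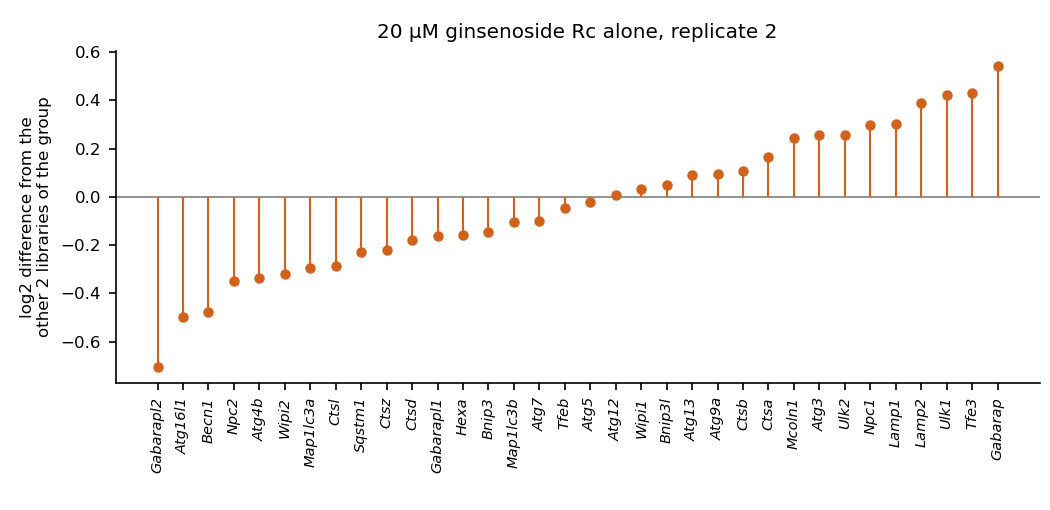
Log2 difference in expression (y axis) of 34 autophagy and lysosome genes (x axis, ordered by value) in replicate 2 of the group with 20 µM ginsenoside Rc alone, from the mean of the other 2 libraries of that group. Gabarapl2 at -0.71 and Gabarap at 0.54 mark the ends.

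In control myotubes the lysosomal protease Ctsd and the membrane protein Lamp1 had the highest levels per transcript length, at 2000 ± 47.3 and 1020 ± 47.3 TPM (transcripts per 1e6; SD, n = 3). Map1lc3a followed with 667 ± 29.8 TPM, then Gabarap with 581 ± 30.8 TPM and Sqstm1 with 528 ± 10.4 TPM. Each of these neighbours differed by more than the sum of their SDs. At the low end stood Tfeb with 19.0 ± 0.602 TPM, Tfe3 with 18.9 ± 0.392 TPM, the cholesterol transporter Npc1 with 17.7 ± 0.228 TPM, Atg16l1 with 14.9 ± 0.402 TPM and Atg7 with 13.3 ± 0.386 TPM. Tfeb and Tfe3 did not differ beyond their spread. Ctsk had 0.338 ± 0.062 TPM.

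Dexamethasone alone raised 11 of the 12 lysosomal genes tested and 9 of the 21 genes of autophagosome formation and cargo binding, by modest amounts. Of the 35 genes tested against control, 20 were higher, 2 were lower and 13 did not pass (edgeR quasi-likelihood test, Benjamini-Hochberg adjusted p below 0.05 over all genes). Among all 15436 genes 20.6% were higher and 23.2% lower. The median log2 change was 0.22 for the 35 genes and -0.01 for all genes tested. All 6 genes of the lysosomal membrane, lipid handling and ganglioside breakdown rose, as did 5 of 6 cathepsins, 3 of 5 Atg8 genes, 2 of 3 cargo receptors, 3 of 7 initiation genes and 1 of 6 conjugation genes. Neither of the transcription factor genes Tfeb and Tfe3 passed. The only called change over 2-fold was that of the sparsely counted Ctsk, against 9.88% of all genes. When libraries were not scaled for composition, 16 of the 35 genes were higher and 3 lower. Among all genes that change of scaling gave 2368 higher and 4393 lower genes, against 3177 and 3578 with the scaling.

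The libraries of the dexamethasone group lay above all control libraries for 24 of the 35 genes and below them for 5, against 28.8% and 30.5% of all genes. The 36 genes together took 0.845% to 0.902% of counts in dexamethasone libraries and 0.775% to 0.781% in control libraries. When replicate 2 of the 20 µM ginsenoside group was left out of the model, 25 genes were higher and 3 lower, with Atg16l1, Atg4b, Becn1, Gabarapl2, Ulk1 and Tfe3 added to the calls. Calls over all genes went up as well in that fit, with 3939 higher and 4165 lower.

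**Figure D2:**
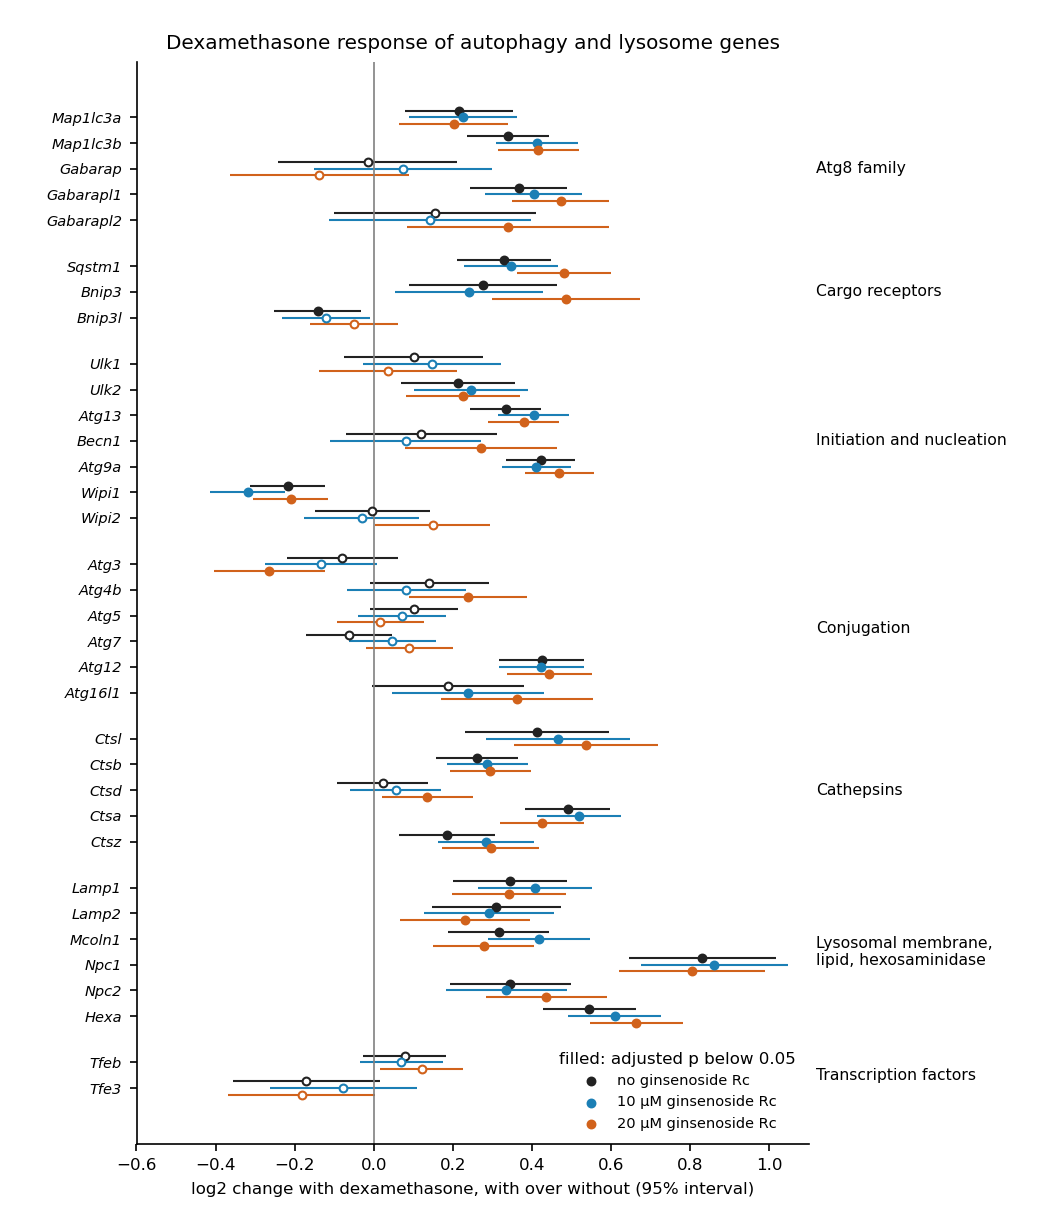
Log2 change with dexamethasone (x axis; points, with 95% intervals as lines) for 34 genes grouped by role (y axis), without ginsenoside Rc and at 10 and 20 µM. Filled points passed an adjusted p of 0.05. The lysosomal membrane, lipid and hexosaminidase genes are filled throughout, from 0.23 for Lamp2 at 20 µM to 0.86 for Npc1 at 10 µM, whereas the points of Tfeb and Tfe3 are unfilled.

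Of 6 genes with the core of the CLEAR motif in a window around an annotated start, Ctsa, Lamp1 and Mcoln1 rose with dexamethasone alone. Of all 35 genes tested, 20 were higher. The core searched was TCACGTG on both strands, in windows of 300 bases around annotated starts from RefSeq (GRCm38.p6). It occurred in 6 of the 29 genes of the set that have a window in that table, 20.69%, or in 6 of their 33 windows, 18.18%. Genes of the set without a window there were not searched. Among all 32851 windows 1237 held it, 3.77%. Ctsd, Atg7 and Atg3 also carry the core and did not pass with dexamethasone alone. Between the groups given 20 µM ginsenoside Rc, Ctsd was higher with dexamethasone (log2 0.14; edgeR adjusted p = 0.048). Atg3 was lower there (log2 -0.26; edgeR adjusted p = 0.0031), and Atg7 did not pass. Stretches are shown for the 3 carriers with the largest absolute log2 change with dexamethasone alone, a choice that rests on the response. They hold every core of each window, with the core in capitals. It is written CACGTGA where it reads on the minus strand and is 8 letters long where it reads the same on both. All lie on the plus strand, Ctsa at chr2:164833758-164833787, Lamp1 at chr8:13159061-13159160 and Mcoln1 at chr8:3500427-3500456 and chr8:3500462-3500491. In the GENCODE vM21 annotation, all 30 bases of the Ctsa stretch and of the second Mcoln1 stretch lie in exons of these genes. The Lamp1 stretch and the first Mcoln1 stretch have 0 bases in exons. Ctsa begins in GENCODE at 164832873, upstream of its stretch.
Ctsa: tgTCACGTGAtgcagatgcTCACGTGAcca
Lamp1: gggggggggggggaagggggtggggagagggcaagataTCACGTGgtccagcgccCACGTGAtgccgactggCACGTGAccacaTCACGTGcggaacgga
Mcoln1, bases -92 to -63: cttagaaagggtcgcgcttgTCACGTGttc
Mcoln1, bases -57 to -28: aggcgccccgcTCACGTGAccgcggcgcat
Lamp1 holds 4 copies, between bases -62 and -10 from its RefSeq start, and Ctsa holds palindromes on either side of its RefSeq start. The glucocorticoid receptor palindrome, searched on both strands as GNACA, any 3 bases and TGTNC, was found in 0 of the 33 windows of these genes and in 156 of all windows, 0.47%. A match of letters in so short a window is a description and no measure of binding.

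**Figure D3:**
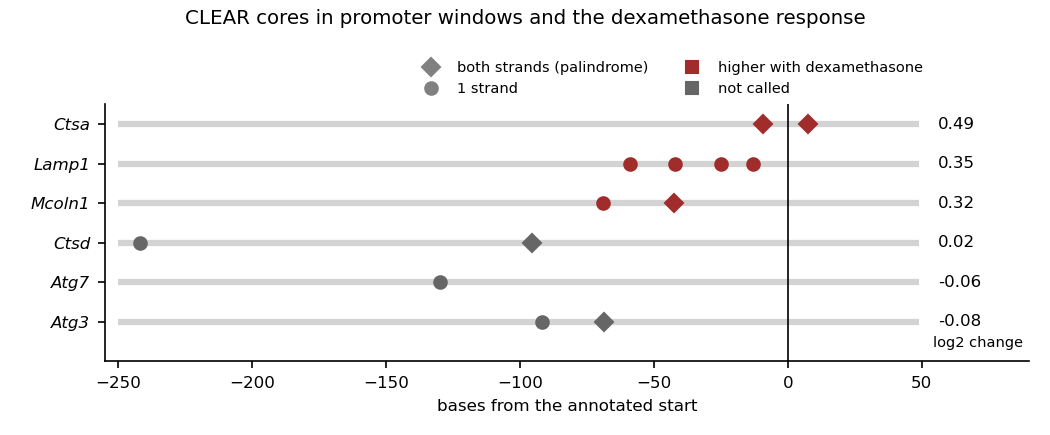
Positions of the CLEAR core (markers) in the promoter window of 6 genes, in bases from the annotated start (x axis), with the log2 change of dexamethasone over control at the right. Ctsa, Lamp1 and Mcoln1 (red) were higher with dexamethasone at 0.49, 0.35 and 0.32, and the other 3 genes (grey) lay between -0.08 and 0.02.

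Npc1, which carries cholesterol out of the lysosome, had the largest change among well-counted genes. It had 109, 99.7 and 102 CPM (counts per 1e6) in dexamethasone libraries, against 59.0, 57.5 and 57.9 CPM in control libraries. The groups stood far apart, and the log2 change was 0.83 ± 0.09 (SE; edgeR adjusted p = 3.8e-07). Its partner in the lysosomal lumen, Npc2, had 369, 326 and 355 CPM in dexamethasone libraries and 276, 282 and 267 CPM in control libraries. It rose by a log2 change of 0.35 ± 0.07 (edgeR adjusted p = 0.00076), and no library of one group reached the other. Hexa, the alpha subunit of the hexosaminidase that degrades gangliosides, had 330, 293 and 315 CPM with dexamethasone, against 213, 209 and 221 CPM in control. All dexamethasone libraries were higher, with a log2 change of 0.55 ± 0.06 (edgeR adjusted p = 2.3e-07).

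Lamp1, a major glycoprotein of the lysosomal membrane (chromosome 8, 13159161 to 13175338), had 1020, 990 and 1010 CPM with dexamethasone and 811, 754 and 813 CPM in control. Its groups did not overlap, and the log2 change was 0.35 ± 0.07 (edgeR adjusted p = 0.00042). Mcoln1, the lysosomal calcium channel that acts upstream of TFEB, averaged 53.2 ± 2.18 CPM with dexamethasone and 42.7 ± 1.36 CPM in control. Its log2 change was 0.32 ± 0.06, and that of Lamp2, which serves fusion and chaperone-mediated autophagy, was 0.31 ± 0.08.

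Among the cathepsins, the proteases of the lysosome, Ctsa, Ctsl, Ctsb, Ctsz and Ctsk rose and Ctsd did not pass. Ctsa, a carboxypeptidase that also protects other lysosomal enzymes (chromosome 2, 164832873 to 164841032), had 350, 314 and 348 CPM with dexamethasone, against 240, 239 and 241 CPM in control. The control libraries were nearly equal, and the log2 change was 0.49 ± 0.05 (edgeR adjusted p = 2.5e-07). Ctsl, the cysteine protease long known to rise in wasting muscle (chromosome 13, 64359337 to 64370890), had 725, 588 and 686 CPM with dexamethasone and 481, 535 and 485 CPM in control. Replicate 2 of the dexamethasone group was its lowest with the drug and replicate 2 of the control group its highest without it, and they still did not overlap. The log2 change was 0.41 ± 0.09 (edgeR adjusted p = 0.00071). Ctsb averaged 828 ± 29.8 CPM with dexamethasone and 690 ± 9.29 CPM in control. Ctsd, the aspartic protease with the highest level of the set, averaged 1380 ± 49.9 CPM with dexamethasone and 1360 ± 33.3 CPM in control, a log2 difference of 0.02 with a 95% interval from -0.09 to 0.14.

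Ctsk had 12, 16 and 10 counts in dexamethasone libraries and 5, 6 and 7 counts in control libraries, or 0.290, 0.368 and 0.248 CPM against 0.133, 0.132 and 0.177 CPM. The groups did not overlap, but a level of 3 counts corresponds to 0.0662 to 0.0907 CPM, so the control values lie close to that floor. The log2 change was 1.03 ± 0.37 (edgeR adjusted p = 0.03), and the call was lost in 6 of 13 alternative analyses, among them DESeq2 and leaving out replicate 1 or 2 of either group. Ctsz, a carboxypeptidase, averaged 164 ± 4.45 CPM with dexamethasone and 144 ± 4.49 CPM in control, and its call was lost without control replicate 1 and without composition scaling.

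The Atg8 genes split. Gabarapl1 (chromosome 6, 129533160 to 129542346) had 99.7, 89.6 and 97.5 CPM with dexamethasone and 73.2, 76.7 and 72.6 CPM in control. Map1lc3b, the source of the LC3B protein that is widely used to count autophagosomes (chromosome 8, 121590361 to 121598760), had 214, 194 and 204 CPM with dexamethasone and 159, 163 and 162 CPM in control. For both, every dexamethasone library exceeded every control library, with log2 changes of 0.37 ± 0.06 (edgeR adjusted p = 4.5e-05) and 0.34 ± 0.05 (1.6e-05). Map1lc3a had 259, 274 and 263 CPM with dexamethasone and 241, 226 and 218 CPM in control. The gap between its groups was narrower, the log2 change was 0.22 ± 0.07 (edgeR adjusted p = 0.012), and the call was lost without composition scaling.

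Gabarap had 311, 292 and 319 CPM with dexamethasone and 319, 293 and 319 CPM in control. The groups overlapped throughout, and the log2 difference was -0.02 with a 95% interval from -0.24 to 0.21. Gabarapl2 had 68.7, 63.2 and 67.3 CPM with dexamethasone and 58.4, 60.3 and 60.3 CPM in control. Its groups did not overlap, yet it did not pass (log2 0.15, 95% interval -0.10 to 0.41; edgeR adjusted p = 0.33). The spread behind that test is shared by all groups and includes the library that stands apart, where Gabarapl2 had 38.9 CPM, against 64.6 and 63.1 CPM in the other 2 of its group. Without that library Gabarapl2 passed.

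The cargo receptor genes moved in both directions. Sqstm1, which encodes the ubiquitin-binding receptor p62 (chromosome 11, 50199366 to 50210827), had 658, 634 and 645 CPM with dexamethasone, against 505, 519 and 517 CPM in control. Its groups were well separated, with a log2 change of 0.33 ± 0.06 (edgeR adjusted p = 1e-04). Both mitophagy receptors were called, in opposite directions. Bnip3 had 258, 222 and 226 CPM with dexamethasone and 191, 203 and 189 CPM in control, a rise of 0.28 ± 0.09 on the log2 scale. Its paralog Bnip3l had 147, 133 and 146 CPM with dexamethasone and 157, 157 and 156 CPM in control, a log2 change of -0.14 ± 0.05. Their edgeR adjusted p-values were 0.017 and 0.036. The call of Bnip3 was lost without control replicate 1, dexamethasone replicate 1 or composition scaling. That of Bnip3l was lost without dexamethasone replicate 2, any 1 control library or the low-count filter.

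Of the genes that start the autophagosome, Atg9a, Atg13 and Ulk2 rose and Wipi1 fell. Atg9a, a scramblase of the vesicles that seed the membrane, had 193, 180 and 190 CPM with dexamethasone and 142, 137 and 141 CPM in control. Its log2 change of 0.42 ± 0.04 had the smallest adjusted p of the set (edgeR, 1.3e-07), with no overlap between groups. Atg13, a regulatory subunit of the ULK complex, averaged 92.0 ± 1.80 CPM with dexamethasone and 73.0 ± 1.61 CPM in control, a log2 change of 0.33 ± 0.04. Wipi1, which reads the lipid made by the Beclin complex, had 186, 173 and 174 CPM with dexamethasone, against 216, 200 and 204 CPM in control. All dexamethasone libraries were lower, with a log2 change of -0.22 ± 0.04 (edgeR adjusted p = 0.00062).

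Of the kinase genes, Ulk2 averaged 103 ± 3.90 CPM with dexamethasone and 88.6 ± 5.99 CPM in control, and its call was lost without dexamethasone replicate 1, without control replicate 2 and without composition scaling. Its paralog Ulk1, with 161 ± 5.96 CPM and 150 ± 8.24 CPM, did not pass, nor did Becn1 or Wipi2. In the conjugation system Atg12, the ubiquitin-like partner of Atg5, was the only gene to pass. Atg12 had 112, 98.1 and 105 CPM with dexamethasone and 79.2, 78.6 and 76.9 CPM in control, a clear separation with a log2 change of 0.43 ± 0.05 (edgeR adjusted p = 1.7e-06). Atg3, Atg4b, Atg5, Atg7 and Atg16l1, the enzymes and scaffold of the same system, had log2 differences from -0.08 to 0.19.

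Tfeb, the master regulator of lysosomal genes (chromosome 17, 47737030 to 47792419), had 34.0, 30.9 and 34.1 CPM with dexamethasone and 31.5, 30.3 and 31.9 CPM in control. The groups overlapped, with a log2 difference of 0.08 and a 95% interval from -0.03 to 0.18. Tfe3 averaged 45.2 ± 0.985 CPM with dexamethasone and 50.8 ± 0.653 CPM in control. Its groups did not overlap, but it did not pass (log2 -0.17; edgeR adjusted p = 0.13). It passed as lower without replicate 2 of the 20 µM ginsenoside group, without composition scaling, and in a model of the 2 groups alone. These are transcript levels, and both factors are known to be controlled largely by their movement into the nucleus.

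**Figure D4:**
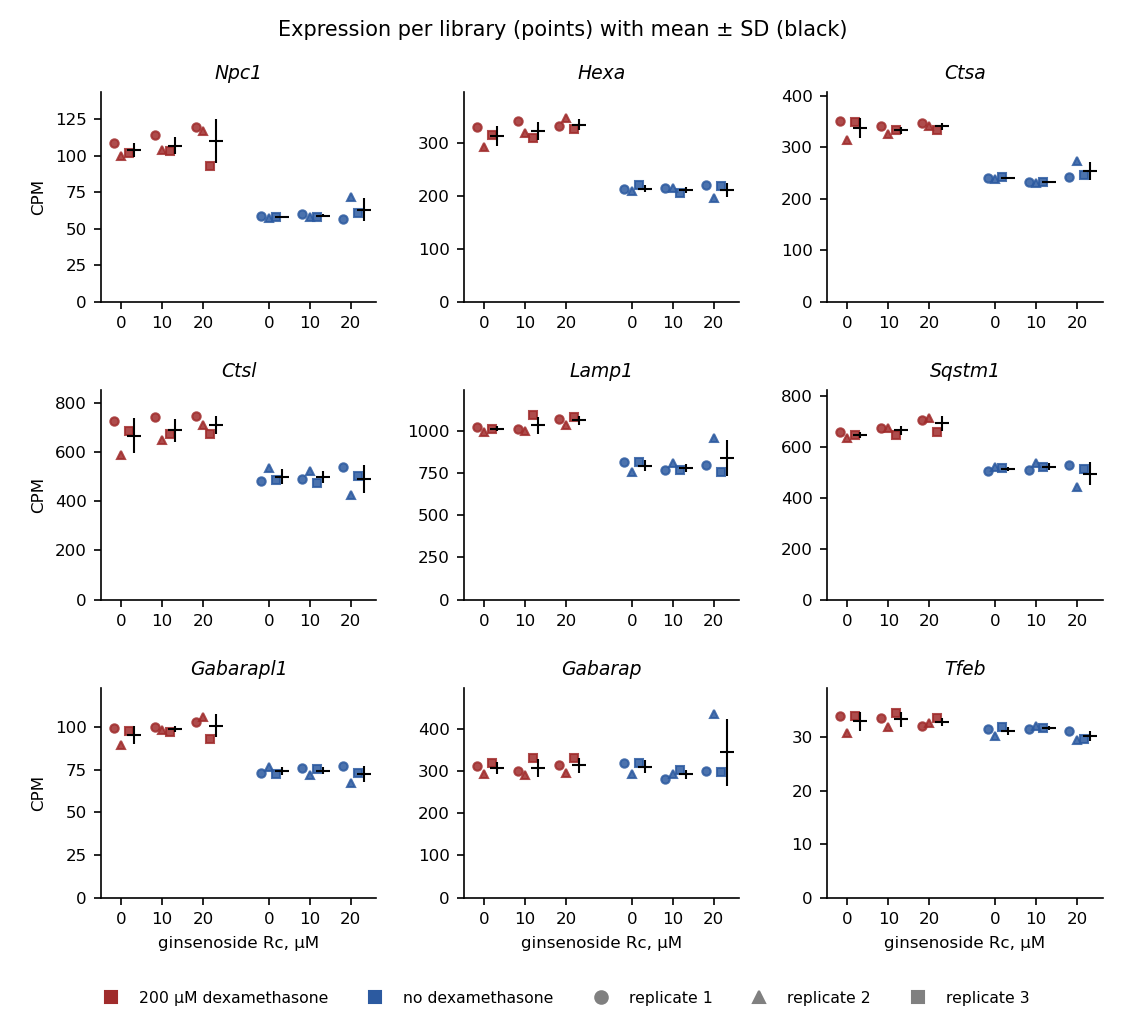
Expression in CPM (y axis, from 0) of 9 genes in each library (points, shaped by replicate) with the group mean ± SD (black, n = 3), at 0, 10 and 20 µM ginsenoside Rc (x axis), with dexamethasone (red, left) and without it (blue, right). Npc1, Hexa, Ctsa and Gabarapl1 are higher in every red library than in every blue one, whereas Gabarap overlaps except for the library at 435 CPM.

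Some of these genes share much of their exon sequence with a neighbour, and the strand setting used for counting is not given in the sources used here. On the same strand, Gm49369 covers 34.37% of the exon bases of Ctsd and Gm29253 covers 31.79% of those of Atg9a. On the opposite strand, Cntd1 covers 43.93% of Becn1, 1700101I11Rik covers 28.32% of Gabarapl1, Gm45507 covers 22.25% of Bnip3, Mrnip covers 17.28% of Sqstm1, Fdft1 covers 12.79% of Ctsb, Tmem202 covers 12.78% of Hexa, Pltp and Neurl2 cover 10.5% and 6.87% of Ctsa and Grtp1 covers 9.31% of Lamp1. Values of these genes are less certain than their counts imply.

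Other genes of the same pathways moved to a similar extent. Their lists were also chosen with earlier results of these data known, so they are a description and no independent support. Of 168 tested genes in 8 further lists, 88 were higher with dexamethasone than in control and 11 lower, with a median log2 change of 0.18. Over all genes 20.6% were higher and 23.2% lower. Further initiation genes rose in 11 of 16 cases and none of the 16 fell, led by Uvrag, a Beclin partner, at 0.35 ± 0.05 (log2, SE) and Atg2a, a lipid transfer protein, at 0.31 ± 0.06. In the remaining conjugation genes 0 of 5 passed in the edgeR test. An unadjusted p below 0.05 was reached by 0 of these 5, against 7733 of all 15436 genes tested. Genes of autophagosome fusion rose in 3 of 13 cases, a share near that of all genes, among them Plekhm1 (0.25 ± 0.07) and Snap29 (0.27 ± 0.08). Further receptors rose in 11 of 19 cases and fell in 1, with Optn at 0.42 ± 0.06 and the glycogen receptor Stbd1 at 0.51 ± 0.08.

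On the lysosomal side, 10 of 21 subunits of the proton pump that acidifies the lysosome rose and 1 fell. Its subunit gene Atp6v1c2 averaged 17.7 ± 0.391 CPM with dexamethasone and 9.23 ± 0.206 CPM in control, and Atp6v0b averaged 212 ± 11.9 CPM and 157 ± 8.19 CPM. Further hydrolases and their activators rose in 17 of 37 cases and fell in 5. Psap, the precursor of the saposins that present lipids to hydrolases, averaged 2290 ± 68.9 CPM with dexamethasone and 1400 ± 25.4 CPM in control, a log2 change of 0.71 ± 0.06. Membrane and sorting genes rose in 15 of 26 cases, including the channel gene Tpcn1 at 0.75 ± 0.06. Regulators rose in 21 of 31 cases and fell in 4. Among them Klf15, a glucocorticoid target that drives amino acid breakdown in muscle, averaged 11.1 ± 0.423 CPM with dexamethasone and 0.284 ± 0.0416 CPM in control, and Trp53inp1, an autophagy protein that binds Atg8 proteins, averaged 118 ± 11.6 CPM and 33.2 ± 0.641 CPM.

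Markers of other cell states moved with dexamethasone as well. Of 8 genes of dividing myoblasts 7 were lower and Myf5 was higher, and their summed level was 97.5 to 99.5 CPM with dexamethasone, against 255 to 259 CPM in control. Within these sums Myf5 averaged 51.9 ± 6.78 CPM with dexamethasone and 23.6 ± 1.28 CPM in control. In bulk RNA, fewer cells of a type and less RNA per cell cannot be told apart. Of 10 myotube genes 7 were higher and Myh3, the embryonic myosin heavy chain, was lower, with sums of 19500 to 20800 CPM with dexamethasone and 18700 to 19700 CPM in control. The 8 macrophage markers, of which 2 of 4 tested were lower, summed to 1.31 to 1.84 CPM with dexamethasone and 1.97 to 2.21 CPM in control. The 6 osteoclast markers summed to 25.1 to 27.2 CPM with dexamethasone and 31.6 to 33.6 CPM in control, with Nfatc1, which other cells also express, the only one tested and lower, and Calcr and Dcstamp at 0 in all libraries. Nearly all of that sum was Nfatc1, which averaged 26.2 ± 1.11 CPM with dexamethasone and 32.3 ± 1.11 CPM in control. The 6 adipocyte markers, of which Pparg and Fabp4 were tested and higher, summed to 8.68 to 10.8 CPM with dexamethasone and 3.71 to 3.91 CPM in control. Pparg averaged 6.27 ± 0.734 CPM with dexamethasone and 3.82 ± 0.102 CPM in control, nearly the whole control sum. Mitochondrially encoded genes also took more of the counts, 1.82%, 1.68% and 1.78% in dexamethasone libraries and 1.38%, 1.26% and 1.38% in control libraries. The part of these shifts in the autophagy and lysosome results was not tested. All 5 glucocorticoid response genes were higher, summing to 1140 to 1190 CPM with dexamethasone and 140 to 141 CPM in control.

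The dexamethasone response was measured again in myotubes given ginsenoside Rc, with other libraries in the groups compared. The estimate of spread is shared by all 18 libraries. With 10 µM, 20 of the 35 genes were higher with dexamethasone than without it and 1 was lower, against 21.1% and 23.0% of all genes, with a median log2 change of 0.25. With 20 µM, 25 were higher and 2 lower, against 23.5% and 25.4% of all genes, with a median of 0.30. Without the library that stands apart, 25 were higher and 3 lower without ginsenoside, 22 and 3 at 10 µM, and 25 and 2 at 20 µM. Over all genes that fit called 3939 higher and 4165 lower, 4042 and 4177, and 3965 and 3999. The larger count at 20 µM is thus not seen against no ginsenoside in that fit. In the model of all libraries, the same 19 genes were higher in all 3 dexamethasone comparisons, and Wipi1 was lower in all 3. Gabarap, Ulk1, Wipi2, Atg5, Atg7, Tfeb and Tfe3 passed in none of the 3. Tfeb at 20 µM lay just outside the threshold, with a log2 difference of 0.12 ± 0.05 (edgeR adjusted p = 0.052), and passed there with median-ratio size factors, with a replicate block and without replicate 1 of the group with 20 µM ginsenoside alone. The remaining 8 genes passed in 1 or 2. The shares of all genes that passed in all 3 comparisons, or in none, were not counted. These joint counts are therefore no result particular to this set.

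Values of the 3 comparisons side by side were as follows. Npc1 had log2 changes of 0.83 ± 0.09 without ginsenoside, 0.86 ± 0.09 at 10 µM and 0.81 ± 0.09 at 20 µM. Hexa had 0.55 ± 0.06, 0.61 ± 0.06 and 0.66 ± 0.06. Ctsl had 0.41 ± 0.09, 0.47 ± 0.09 and 0.54 ± 0.09, and Sqstm1 had 0.33 ± 0.06, 0.35 ± 0.06 and 0.48 ± 0.06. Bnip3 had 0.28 ± 0.09, 0.24 ± 0.09 and 0.49 ± 0.09, and the sparsely counted Ctsk had 1.03 ± 0.37, 1.01 ± 0.41 and 1.64 ± 0.44. The values of Hexa, Ctsl and Sqstm1 are ordered by dose, and those of Npc1, Bnip3 and Ctsk are not. Other genes of the set, such as Map1lc3b, Gabarapl1 and Ctsb, have the same order, and others, such as Lamp1 and Ctsa, do not. The share of all genes so ordered was not counted, so the order is no result particular to the genes named. In the library that stands apart, Hexa, Ctsl and Sqstm1 were each the lowest of the group with 20 µM ginsenoside alone. Hexa had 196 CPM there against 220 and 218, Ctsl 426 against 539 and 502, and Sqstm1 444 against 528 and 513. The part of that library in the order was not tested. No gene passed the direct test of the difference in response. For the interaction of dexamethasone with 10 µM ginsenoside 0 of 35 genes passed (edgeR; 0.0% of all genes), and 0 had an unadjusted p below 0.05, against 2.12% of all genes. For 20 µM 0 of 35 passed as well (0.0% of all genes), with 0 at an unadjusted p below 0.05, against 5.29%. That last count was 6 without replicate 1 of the group with 20 µM ginsenoside alone, 3 without its replicate 3 and 0 to 2 when any other library compared was left out. DESeq2 gave 0 of these genes in both. The 95% interval of the interaction at 20 µM ran from -0.02 to 0.32 for Sqstm1 and from -0.29 to 0.23 for Npc1, and over 34 genes no bound was farther from 0 than 0.55 on the log2 scale, that of Gabarapl2.

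The calls at 20 µM depend most on the model. In a model of the compared libraries alone, which include the one that stands apart, 16 of 34 genes that passed its filter were higher and 1 lower. Over all genes that model called 2270 higher and 2833 lower, against 3631 and 3924 in the model of all libraries. Leaving out 1 library of the 20 µM groups removed the call of Ctsd in 5 of 6 cases, and that of Lamp2, Gabarapl2, Ulk2, Becn1 or Map1lc3a in 1 to 4 cases. At 10 µM the calls of Atg16l1 and Bnip3 were the only ones lost when 1 library was left out.

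Ginsenoside Rc on its own, and added to dexamethasone, was not followed by a called change in any of these genes. With 10 µM against control 0 of 35 genes passed, where 0.00648% of all genes did, and 0 had an unadjusted p below 0.05, against 2.54%. With 20 µM against control 0 of 35 passed, where 0.104% of all genes did, and Lamp2 and Atg7 had an unadjusted p below 0.05, against 9.29%. With dexamethasone, 0 of 35 passed at 10 µM (0.0259% of all genes) and 0 had an unadjusted p below 0.05, against 3.85%. At 20 µM with dexamethasone, against dexamethasone alone, 0 of 35 passed (0.369% of all genes), and Bnip3l, Atg9a and Bnip3 had an unadjusted p below 0.05, against 8.75%. These unadjusted counts varied with single libraries. The count at 20 µM against control was 8 without replicate 1 of the 20 µM group, 6 without replicate 3 and 0 or 1 without control replicate 1 or 2. With dexamethasone it was 8 without replicate 2 of the group with 20 µM ginsenoside alone, 0 without dexamethasone replicate 2, and between 1 and 6 when any other library compared was left out. DESeq2 also gave 0 of the 35 genes in each of these 4 comparisons, as did leaving out the library that stands apart. Both called more genes over the whole table. For 20 µM with dexamethasone against dexamethasone alone DESeq2 called 251 genes and the fit without that library 341, against 57 with it. For 20 µM against control they called 101 and 44 genes, against 16.

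The intervals limit, gene by gene, how large a ginsenoside change could have been missed given the spread among libraries. That spread could be technical and includes the library that stands apart. The intervals are not joint over the genes. Over the 34 well-counted genes the 95% bound farthest from 0 was 0.33 on the log2 scale with 10 µM (Bnip3) and 0.37 with 20 µM (Gabarap), and with dexamethasone it was 0.29 at 10 µM and 0.39 at 20 µM (Bnip3 in both). The estimates themselves lay between -0.12 and 0.16 for 20 µM against control, and between -0.08 and 0.21 for 20 µM with dexamethasone against dexamethasone alone. Bnip3 had the upper end of that last range, 0.21 ± 0.09 (edgeR adjusted p = 0.48). Atg9a, with 202, 208 and 198 CPM in myotubes given both compounds and 193, 180 and 190 CPM with dexamethasone alone, had the smallest unadjusted p and a log2 difference of 0.11 ± 0.04 (edgeR adjusted p = 0.36). Its groups did not overlap, which held in the same direction for 6 of the 35 genes and for 7.23% of all genes.

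Between the doses, 20 against 10 µM, 0 of 35 genes passed without dexamethasone (0.0% of all genes), and Ctsa, Gabarap and Wipi2 had an unadjusted p below 0.05, against 8.97%. That count of 3 was 11 without replicate 1 of the 20 µM group, 9 without its replicate 3 and 0 to 4 when any other library compared was left out. With dexamethasone 0 of 35 passed (0.0% of all genes), and Atg9a had an unadjusted p below 0.05, against 2.83%. For example, Ctsl averaged 500 ± 30.2 CPM in control, 497 ± 24.6 CPM with 10 µM and 489 ± 57.6 CPM with 20 µM. With dexamethasone it averaged 666 ± 70.5 CPM without ginsenoside, 688 ± 47.6 CPM at 10 µM and 709 ± 36.5 CPM at 20 µM, differences within the spread between libraries.

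**Figure D5:**
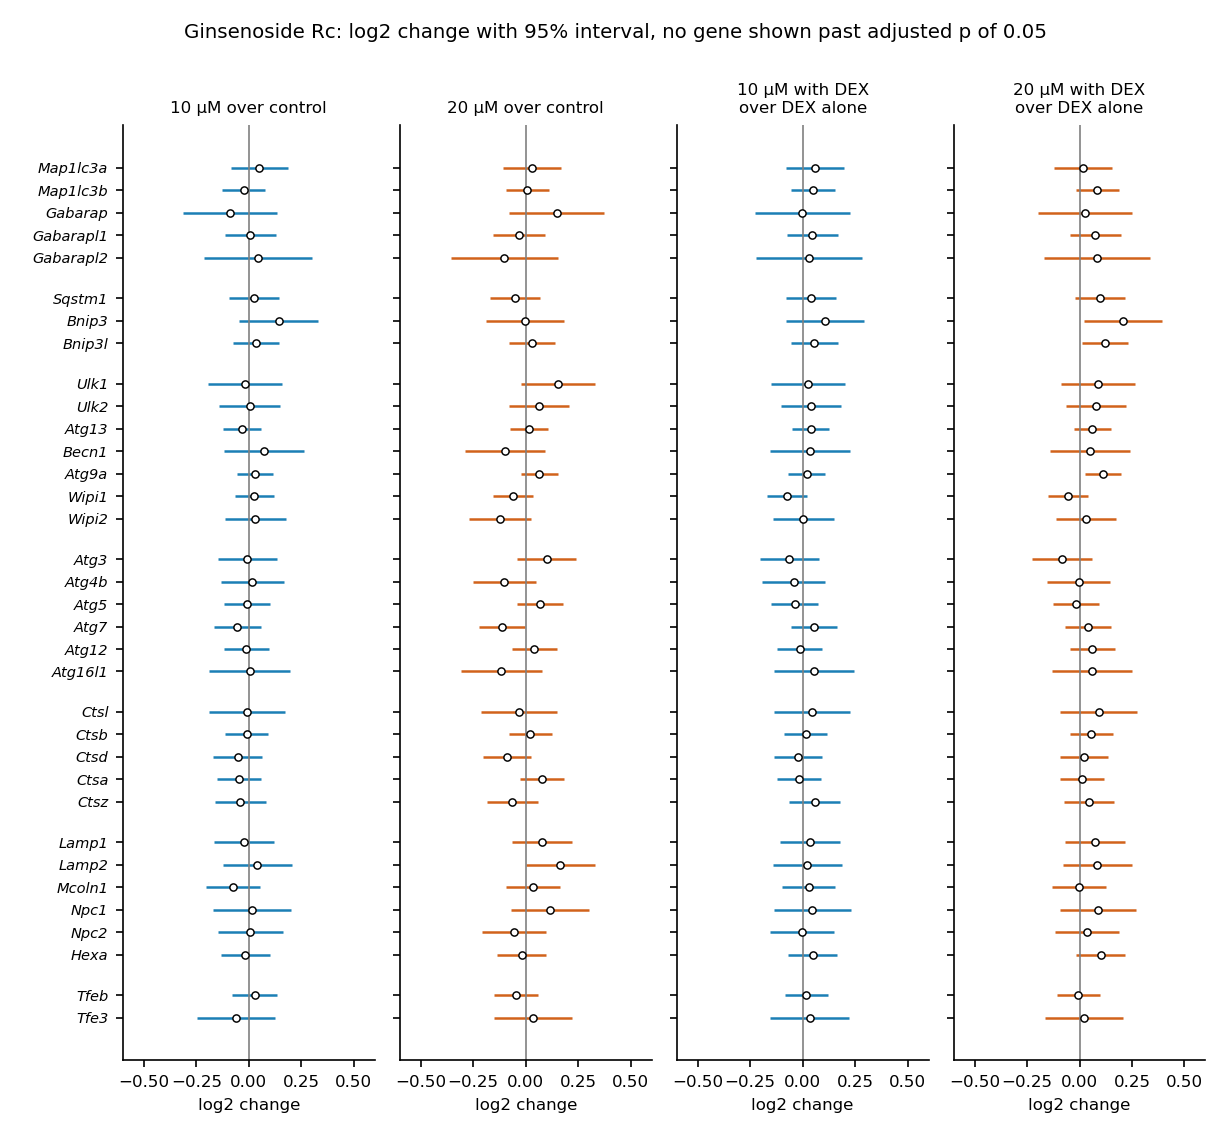
Log2 change with ginsenoside Rc (x axes; open points, with 95% intervals as lines) for 34 genes (y axis), at 10 and 20 µM against control and, with dexamethasone (DEX), against dexamethasone alone. No gene shown passed, and no interval reaches farther from 0 than 0.39.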

How the data were processed

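The expected counts, which RSEM estimates per gene, were deposited by the authors in 1 table. Per the submitters' processing notes, FastQC 0.11.9, Trim Galore 0.6.5, STAR 2.7.3a, RSEM 1.3.3 and the mouse build GRCm38 were used, and per the labels' protocols the libraries were directional. No annotation release, filter or strand setting is given there.

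Expected counts (9.27% not whole) were rounded, filtered with filterByExpr, scaled by TMM and fitted with edgeR 4.0.16 under R 4.3.3 to the 18 libraries together (robust quasi-likelihood, 1 mean per group). The 11 comparisons were tested with glmQLFTest and adjusted over all 15436 genes at 0.05. SE is the log2 change over the root of the F statistic, with 95% intervals from it. CPM are TMM scaled. TPM, from GENCODE vM21 exon lengths, serve only to compare genes. Symbols and coordinates are from GENCODE vM21 (GRCm38), which named 48435 IDs. The floor of 3 counts covers counting error only. Reads of similar copies are split by RSEM's estimate. The test was checked on simulated data. There few genes changed, in the dexamethasone group only, and no library stood apart, so that check does not cover those features of these data.

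The 36 genes and all lists were chosen with earlier results of these data known. Values per library are given for the 10 largest changes among genes called with dexamethasone, the Atg8 genes, Sqstm1, Tfeb and Ctsl, and otherwise for examples by adjusted p. Bnip3, Bnip3l, Ctsd, Ctsz, Lamp2, Tfe3, Ulk1, Ulk2 and Wipi1 were singled out after their values were seen. Alternatives were DESeq2 1.42.0, median-ratio factors, library totals without composition scaling, all genes unfiltered, a model of the compared groups alone, a replicate block and each library left out in turn. All titles name the same batch.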

Additional observations from a re-analysis of the deposited data

How the results depend on the processing

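Of the 22 calls with dexamethasone against control, 16 (15 higher) held under every alternative run, and Bnip3, Bnip3l, Ctsk, Ctsz, Map1lc3a and Ulk2 were lost under at least 1. Leaving out 1 library gave 17 to 25 higher and 1 to 3 lower genes without ginsenoside, 18 to 22 and 1 to 3 at 10 µM, and 20 to 25 and 2 to 3 at 20 µM. With only the compared groups in the model, 17 genes were called at 20 µM, 16 of them higher; the cause was not tested. Leaving out 1 library moved the log2 difference of Gabarap between -0.056 and 0.021, changing its sign without control replicate 1 (0.0047), control replicate 3 (0.014) or dexamethasone replicate 2 (0.021); it passed in none of these. Composition scaling moved the split of calls as given above. No ginsenoside, interaction or dose comparison called any of these genes under any alternative run. Deviations of same-numbered libraries had r from -0.196 to 0.150 over 27 pairs. For 10 µM against control these r were all positive (0.038, 0.150 and 0.062). For 20 µM against control they were all negative (-0.064, -0.196 and -0.119). Some other comparisons also had r of 1 sign, such as 10 µM with dexamethasone against dexamethasone alone (0.082, 0.048 and 0.032). Between unlike-numbered libraries r reached 0.221, for replicate 1 with 20 µM and control replicate 2. With 3 libraries a group, such values cannot tell whether same-numbered libraries share a culture or handling. With a replicate block, dexamethasone alone gave 20 higher and 2 lower genes, and the 10 µM comparison 20 and 1. The 20 µM comparison gave 25 and 2, where Tfeb entered and Ctsd left. The intervals for ginsenoside changes hold gene by gene and cover the spread among libraries only, so they do not bound changes across separate cultures.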
